A study of Mus musculus with 9 samples.

Results

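The major histocompatibility complex (MHC) and antigen presentation genes were followed across 4 sorted populations of the mouse hair follicle. They were taken by name, as every gene row whose symbol begins with H2-, the mouse MHC prefix, together with B2m, Tap1, Tap2, Tapbp, Cd74, Ciita, Nlrc5, Psmb8, Psmb9 and Psmb10. The rule gave 54 of 46517 gene rows and used no measured value. On mm10, 49 of them lie on chromosome 17 and the others on chromosomes 2 (B2m), 8 (Nlrc5 and Psmb10), 16 (Ciita) and 18 (Cd74). They comprised 2 classical class I heavy chains, 29 other class I genes and pseudogenes, 4 genes of the class I light chain and of peptide loading, 3 immunoproteasome subunits, 5 class II chains, 6 class II loading genes, 2 class II pseudogenes, 2 regulators, and H2-Ke6, which carries the prefix but encodes an enzyme and no MHC molecule. Together they took 0.0539% to 0.0943% of the counts of a library.

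Bulk RNA sequencing covered follicles of the back skin in full growth (anagen VI) from mice of postnatal day 30. Suprabasal cells of the hair bulb (suprabasal HB, n = 2) and basal cells of the bulb (basal HB, n = 2) came from the lower end of the follicle, and the outer root sheath (ORS, n = 2) and the hair follicle stem cells of the bulge (HFSC, n = 3) from above it. All 4 groups carry the strain label Lhx2-GFP (CD1) and the sex label Mixed, while the protocol for extraction gives K14-H2BGFP, so which transgene supplied the GFP of the sort is not settled. Krt14 (K14), whose promoter would drive the second, is a gene of basal and outer root sheath keratinocytes. CD34, Sca-1, Pcadherin and the integrins α6 and b1 were the other sort markers, with no gates given. None of the sources used here says whether replicates came from separate mice, so a p-value measures only the spread between these libraries, which may be technical. For ORS that spread also holds a large difference in Xist between its libraries (75 and 130611 counts). CD1 is an outbred stock, and the H2 haplotypes of these mice are not given. The reads were counted on the genome of another strain, and the effect of allele differences on the H2 counts was not tested.

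Library totals ran from 25098237 to 88596741 counts. The 3 HFSC libraries were the shallowest and stood apart in other ways. Rps12, a ribosomal protein gene, had 0 counts in each of them and 15484 to 20007 in the other 6. The Y-linked gene Ddx3y had at most 1 count in HFSC and 4300 to 6304 elsewhere, and Xist had 47 to 75 counts in both suprabasal HB libraries and in ORS replicate 1, against 20063 to 130611 in the rest. Differences between ORS and HFSC therefore cannot be told apart from these differences between libraries, and bulb results are given with HFSC and against ORS alone. Both suprabasal HB libraries also differed from both basal HB libraries in Xist (65 and 47 against 24707 and 20063 counts). Differences between suprabasal and basal HB, described below, cannot be told apart from that difference either. The summed levels of hair bulb matrix and bulge genes followed the labels, while a keratin list did not. The 6 hair bulb matrix genes with a row summed to 2726 and 3060 normalised CPM (read counts scaled to library size) in suprabasal HB, 1778 and 1810 in basal HB, 887 and 845 in ORS, and 434 to 474 in HFSC. The 5 bulge genes summed to 95.7 and 93.4, 406 and 598, 1730.0 and 2413, and 3368 to 3947 CPM in the same order. Of the 5, Nfatc1 ran against the sum, with 7.503 and 6.60 CPM in suprabasal HB, 6.36 and 6.29 in basal HB, 2.57 and 1.04 in ORS, and 3.01 to 5.45 in HFSC. Of the 6 matrix genes, 1 was higher and 2 were lower in suprabasal than in basal HB, where 13.1% and 14.8% of all genes were. The 3 outer root sheath and basal keratin genes were highest in HFSC, not in ORS. They summed to 1168 and 1227 CPM in suprabasal HB, 2254 and 2500 in basal HB, 3247 and 3875 in ORS, and 8972 to 11180 in HFSC. Melanocyte markers summed to 14810.0 and 15160.0 CPM in suprabasal HB, against 1302 and 869.5 in basal HB, 324 and 75.4 in ORS and 87.7 to 152 in HFSC, and the part of pigment cell RNA in the suprabasal HB values was not tested.

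MHC class I molecules show peptides from inside the cell to cytotoxic T cells. A heavy chain (H2-K1 or H2-D1 in these mice) pairs with the light chain beta-2 microglobulin (B2m), the TAP1 and TAP2 proteins pump peptides into the endoplasmic reticulum, tapasin (Tapbp) holds the empty molecule at the pump, and the immunoproteasome subunits encoded by Psmb8, Psmb9 and Psmb10 change how proteins are cut. Class II molecules (H2-A and H2-E) show peptides from outside the cell to helper T cells, are escorted by the invariant chain Cd74, loaded with the help of H2-DM, and normally made by professional antigen-presenting cells such as macrophages, dendritic cells and B cells. NLRC5 switches on class I genes and CIITA switches on class II genes, in both cases through promoter modules that end in an inverted CCAAT box, and interferon-gamma raises both pathways. The bulb of the growing follicle is described as a site of immune privilege, with little class I protein on its matrix and inner root sheath cells and with local inhibitors such as TGF-beta. Protein was not measured here.

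The promoters of 4 members are shown because these genes carry the contrasts below: a class I heavy chain and its light chain (H2-K1, B2m), a class II chain with a peak in basal HB (H2-Aa), and a non-classical gene with such a peak that held without each library in turn (H2-M9). The RefSeq table for GRCm38.p6 holds 40 windows for 37 of the 54 members, each from 250 bases before to 50 bases after a start, and the stretches below are the part before the start that overlaps no annotated exon. Capitals mark the core of the interferon-stimulated response element (GAAA, then 2 bases of any kind, then GAAA), the palindromic NF-kappaB site (GGGGA, 2 bases of any kind, then CCCC) and the CCAAT box in either orientation (CCAAT or ATTGG).
H2-K1, chr17:34000348-34000597, minus strand: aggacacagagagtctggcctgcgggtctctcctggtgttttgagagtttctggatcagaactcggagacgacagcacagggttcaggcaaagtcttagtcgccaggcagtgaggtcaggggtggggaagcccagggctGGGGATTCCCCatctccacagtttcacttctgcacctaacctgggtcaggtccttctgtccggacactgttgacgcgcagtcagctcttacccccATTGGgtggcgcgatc
B2m, chr2:122147437-122147685, plus strand: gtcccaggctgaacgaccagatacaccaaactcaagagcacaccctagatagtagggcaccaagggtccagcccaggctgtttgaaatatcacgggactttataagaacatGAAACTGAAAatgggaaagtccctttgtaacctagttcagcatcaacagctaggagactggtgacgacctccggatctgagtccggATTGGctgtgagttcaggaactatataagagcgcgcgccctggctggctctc
H2-Aa, chr17:34287824-34288073, minus strand: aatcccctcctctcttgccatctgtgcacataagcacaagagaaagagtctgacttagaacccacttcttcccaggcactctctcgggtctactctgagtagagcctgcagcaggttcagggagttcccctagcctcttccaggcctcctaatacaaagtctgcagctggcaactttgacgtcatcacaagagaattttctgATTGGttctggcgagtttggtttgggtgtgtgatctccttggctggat
H2-M9, chr17:36642667-36642913, minus strand: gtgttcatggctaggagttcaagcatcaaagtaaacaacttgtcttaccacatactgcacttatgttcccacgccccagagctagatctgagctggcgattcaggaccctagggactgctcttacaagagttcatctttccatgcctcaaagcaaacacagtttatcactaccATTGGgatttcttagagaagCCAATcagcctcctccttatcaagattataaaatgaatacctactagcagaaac

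Both strands were searched. The interferon-stimulated core was found in the windows of 3 of 37 members (8.11%), namely B2m, H2-T22 and H2-T23, against 3.44% of all 32851 windows in the table. The palindromic NF-kappaB site was in 3 (8.11%), namely H2-K1, H2-D1 and H2-Q6, against 0.432% of all windows. A CCAAT box was in 32 of 37 members (86.5%), against 37.4% of all windows. Some members, such as H2-T23 and H2-M11, hold it only as CCAAT and not in the inverted form. In all 3 searches a member counts if any of its windows matches, whereas the other share counts single windows. Many members are related class I genes, so their windows are not independent of each other. These letters describe the windows and show no binding. Only exact matches were counted, so a window without a mark may still hold a variant of the element. In H2-Aa the ATTGG began 48 bases before the start and in B2m 53 bases before it. In H2-K1 it began 16 bases before the start shown and 30 bases before the other RefSeq start of that gene. Whether these boxes bear on the levels described next was not tested.

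Of the 54 members, 37 passed the filter on low counts and 17 did not. Among the 17, the highest value in any library was 0.182 CPM, and 7 (H2-Pa, H2-Pb, H2-M10.3, H2-M10.4, H2-M10.5, H2-M10.5-ps1 and H2-M10.6) were at 0 in all 9 libraries. A limit of 3 counts, which covers counting error only, is worth 0.0339 to 0.12 CPM here. The others left out were H2-Eb2, H2-Oa, H2-Ob, H2-M1, H2-M10.1, H2-M10.2, H2-M5, H2-M6-ps, H2-Q3 and H2-T3. Of the 37, 21 reached a mean of 5 CPM in at least 1 population. Differences below are log2 fold changes from edgeR's quasi-likelihood test with Benjamini-Hochberg adjustment over all 20491 genes tested, called at an adjusted p under 0.05. In bulk RNA, fewer cells of a type and less RNA per cell cannot be told apart.

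Neither classical class I heavy chain passed the test in the bulb against the upper follicle. H2-D1 had 188 and 180.4 CPM in suprabasal HB, 149 and 162 in basal HB, 139 and 137 in ORS, and 197, 188 and 201 in HFSC. H2-K1 had 91.8 and 83.6 CPM in suprabasal HB, 65.7 and 73.4 in basal HB, 76.7 and 66.2 in ORS, and 92.7, 74.5 and 105 in HFSC. The H2-D1 values of basal HB and ORS lay below those of the other populations, and for H2-K1 the ORS and HFSC ranges overlapped. The bulb (mean of suprabasal and basal HB) minus the upper follicle (mean of ORS and HFSC) gave 0.04 (SE 0.06, adjusted p = 0.594) for H2-D1 and -0.04 (SE 0.11, adjusted p = 0.77) for H2-K1. Against ORS alone H2-D1 was higher in the bulb, by 0.29 (SE 0.08, adjusted p = 0.0187), while H2-K1 differed by 0.13 (adjusted p = 0.531). Of the single steps, only H2-D1 in ORS against HFSC was called (-0.50, SE 0.08, adjusted p = 0.00153), and on the TPM scale it was not (adjusted p = 0.139 and 0.141). H2-D1 and H2-K1 share 18.7% and 15.3% of their 25-base words with each other, so the split of reads between them is uncertain. Their sum was 280 and 264 CPM in suprabasal HB, 215 and 235 in basal HB, 216 and 203 in ORS, and 263 to 306 in HFSC.

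B2m, the shared light chain, which shares no 25-base word with another annotated gene, took a U-shaped course along the follicle. It had 131 and 156 CPM in suprabasal HB, 84.4 and 93.0 in basal HB, 68.3 and 57.0 in ORS, and 158, 155 and 158 in HFSC. Values in suprabasal HB reached those of HFSC, and each step in between separated the libraries. B2m was higher in suprabasal HB than in basal HB (0.70, SE 0.12, adjusted p = 0.00341) and higher in basal HB than in ORS (0.50, SE 0.12, adjusted p = 0.0125). The second call was lost without ORS replicate 2 (adjusted p = 0.091) or basal HB replicate 2 (0.0914). In ORS B2m was lower than in HFSC (-1.33, SE 0.11, adjusted p = 7.9e-05). Bulb minus upper follicle gave 0.19 (SE 0.08, adjusted p = 0.0932), and bulb minus ORS alone gave 0.85 (SE 0.11, adjusted p = 0.000457). The first difference passed the test under 12 of the 19 alternatives. Those 12 include the fits with ORS alone and with no HFSC library, which set the bulb against ORS and are another comparison. Without 1 library the first difference was 0.124 to 0.257. Per transcript length, in TPM, B2m stood at 277 ± 7.24 in suprabasal HB, 206.5 ± 0.311 in basal HB and 141 ± 15.7 in ORS (SD, n = 2 each) and 279 ± 17.5 in HFSC (n = 3), above H2-D1 at 180 ± 22.6, 190 ± 0.297, 167 ± 5.67 and 196 ± 21.8 in all but ORS.

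The peptide loading genes were lower in the bulb than in the upper follicle. Tap1 had 16.5 and 12.1 CPM in suprabasal HB, 17.9 and 17.4 in basal HB, 22.5 and 23.4 in ORS, and 68.4, 64.9 and 64.0 in HFSC. Tap2 had 10.1 and 7.05 CPM in suprabasal HB, 15.4 and 16.3 in basal HB, 16.6 and 21.6 in ORS, and 59.4, 48.5 and 54.9 in HFSC. Tapbp had 36.9 and 30.7 CPM in suprabasal HB, 40.3 and 44.0 in basal HB, 49.2 and 63.9 in ORS, and 147, 129 and 129 in HFSC. In each of the 3 the populations lay in the same order with no overlap. Bulb minus upper follicle was -1.29 (SE 0.09, adjusted p = 8.4e-06) for Tap1, -1.46 (SE 0.13, adjusted p = 2.99e-05) for Tap2 and -1.21 (SE 0.10, adjusted p = 1.96e-05) for Tapbp. Against ORS alone the differences were smaller and still called, at -0.53 (adjusted p = 0.00675), -0.71 (adjusted p = 0.00865) and -0.58 (adjusted p = 0.00654). In basal HB against ORS none of the 3 was called, at -0.38, -0.27 and -0.43 (adjusted p = 0.0585, 0.338 and 0.0541). The call against ORS is thus one for the mean of both bulb populations and is not shown for basal HB by itself. The largest step was ORS against HFSC, at -1.52, -1.51 and -1.26 (adjusted p = 6.91e-05, 0.000301 and 0.000209). Within the bulb only Tap2 was called, lower in suprabasal HB by 0.89 on the log2 scale (SE 0.19, adjusted p = 0.00926; 0.0541 without basal HB replicate 2). Tapbp and Tap2 share 28.4% and 15.6% of their 25-base words with other annotated genes, mainly Gm19412 and Gm15821.

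**Figure D1:**
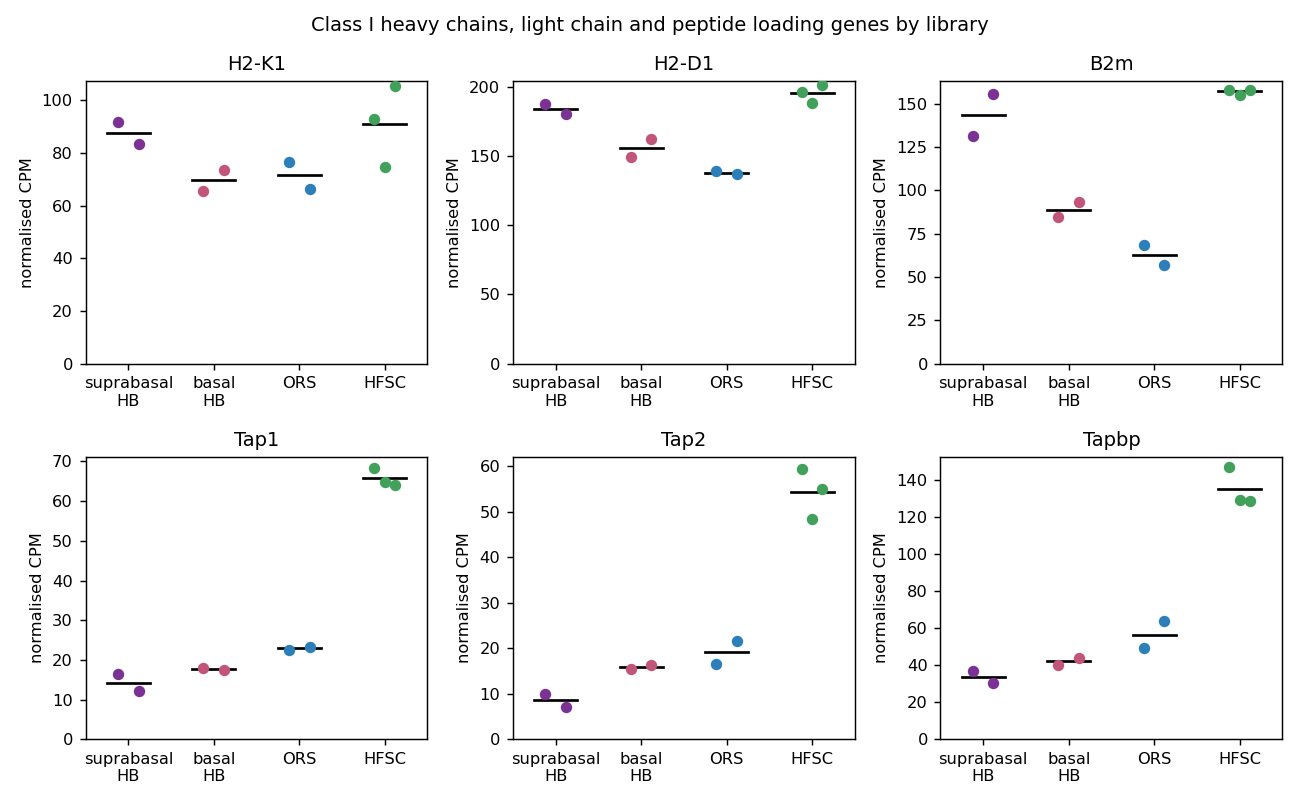
Normalised CPM (y axis, from 0) of 6 class I genes in each library, with populations on the x axis, points for libraries and bars for population means. H2-K1 and H2-D1 stand at like levels in bulb and upper follicle, B2m is lowest in ORS, and Tap1, Tap2 and Tapbp step down without overlap between populations to 12.1, 7.05 and 30.7 CPM in suprabasal HB replicate 2.

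The 3 immunoproteasome subunits did not move together. Psmb10 had 12.7 and 19.1 CPM in suprabasal HB, 12.1 and 14.25 in basal HB, 10.2 and 8.94 in ORS, and 8.34, 9.13 and 8.18 in HFSC. It was the only member called higher in the bulb than in the upper follicle (0.68, SE 0.14, adjusted p = 0.00391), with every bulb library above every upper library; no neighbouring step passed. Psmb8 had 2.36 and 2.37 CPM in suprabasal HB, 3.41 and 4.16 in basal HB, 2.85 and 2.25 in ORS, and 6.49, 5.72 and 4.69 in HFSC. Psmb9 had 5.62, 4.39 and 4.51 CPM in HFSC and 1.86 to 2.81 in the other 6 libraries. Both were lower in ORS than in HFSC, at -1.15 for Psmb8 and -1.08 for Psmb9 (adjusted p = 0.00351 and 0.00371). On TPM both calls were lost (adjusted p = 0.0505 to 0.0809). Psmb9 was also called lower in the bulb (-0.52, adjusted p = 0.0227), a call that against ORS alone turned to 0.02 (adjusted p = 0.955) and that was lost in 6 of the 9 leave-one-out fits (highest adjusted p = 0.119), with no low-count filter (0.0707) and on TPM (0.142 and 0.131).

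The 3 standard catalytic subunits that the immunoproteasome replaces, and the proteasome activator were measured beside it. Of the 6 genes on that list, 1 was higher and 2 were lower in the bulb: Psmb5 by 0.45 (adjusted p = 0.00414), and Psme2 and Psme1 by -0.53 and -0.29 (adjusted p = 0.0002 and 0.00603). Over all genes 21.6% were higher and 23.1% lower in the bulb, and 15.9% and 16.1% against ORS alone. Psme1 and Psme2 encode the interferon-inducible activator PA28. Against ORS alone none of the 6 was called, with 0.14 for Psmb5, -0.08 for Psme2 and 0.22 for Psme1 (adjusted p = 0.421, 0.529 and 0.0722). Of 5 class I assembly genes in the endoplasmic reticulum, 3 were lower in the bulb, where 23.1% of all genes were. They were Tapbpl (-1.48, adjusted p = 1.23e-05), a tapasin relative that edits peptides, Erap1 (-0.96, adjusted p = 6.1e-05), which trims them, and Pdia3 (-0.26, adjusted p = 0.0207), a folding partner of tapasin. Against ORS alone Tapbpl and Erap1 were still lower (-0.86 and -0.73; adjusted p = 0.0015 and 0.00168), and Pdia3 gave -0.02 (adjusted p = 0.922). In suprabasal against basal HB the general chaperones Pdia3, Canx and Calr were higher, by 0.54, 0.53 and 0.42, where 13.1% of all genes were higher. Tapbpl and Erap1 did not pass there.

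The T region genes H2-T23, H2-T10 and H2-T22 were highest in HFSC. H2-T23, which encodes Qa-1, the ligand of the NKG2A receptor on natural killer cells, had 5.11 and 3.94 CPM in suprabasal HB, 5.53 and 5.64 in basal HB, 4.53 and 4.07 in ORS, and 13.8, 16.2 and 16.5 in HFSC. H2-T10, a ligand of some gamma-delta T cells, had 4.79 and 4.70 CPM in suprabasal HB, 5.49 and 6.34 in basal HB, 7.12 and 7.31 in ORS, and 25.9, 20.7 and 21.9 in HFSC. H2-T22, its close relative, had 3.15 and 2.48 CPM in suprabasal HB, 2.56 and 3.20 in basal HB, 3.37 and 2.95 in ORS, and 9.28, 6.82 and 9.23 in HFSC. In all 3 the HFSC libraries stood clear of the rest, which lay close to one another. ORS minus HFSC was -1.85, -1.66 and -1.42 (adjusted p = 0.000115, 9.21e-05 and 0.00126). The bulb was called lower than the upper follicle for each (-0.70, -1.28 and -0.86; adjusted p = 0.00179, 2.25e-05 and 0.00252), but against ORS alone H2-T23 gave 0.23 (adjusted p = 0.328), H2-T22 -0.15 (adjusted p = 0.641) and only H2-T10 was called (-0.45, adjusted p = 0.0317; 0.0663 with HFSC left out of the fit). H2-T10 and H2-T22 share 53.6% and 53.2% of their 25-base words with each other, and their summed level was 7.94 and 7.18 CPM in suprabasal HB, 8.05 and 9.53 in basal HB, 10.48 and 10.26 in ORS, and 27.6 to 35.2 in HFSC.

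Of the 4 Q region genes at 5 CPM or more, class I genes that include those of the Qa-2 antigen, 3 were lower in ORS than in HFSC, where 23.8% of all genes were. H2-Q4 had 38.8 and 29.9 CPM in suprabasal HB, 32.75 and 33.7 in basal HB, 38.3 and 40.3 in ORS, and 56.75, 47.7 and 53.4 in HFSC. H2-Q6 had 1.58 and 1.79 CPM in suprabasal HB, 3.80 and 3.41 in basal HB, 2.85 and 4.66 in ORS, and 13.8, 13.0 and 8.32 in HFSC. HFSC was again the highest in both. H2-Q6 was lower in ORS than in HFSC (-1.64, adjusted p = 0.00219), as was H2-Q4 (-0.42, adjusted p = 0.0212), whose call was lost without HFSC replicate 1 or 3 or either ORS library (adjusted p = 0.0656 to 0.138), with the replicate number as a block (0.0557), under upper-quartile scaling (0.0581), with no low-count filter (0.063) and on TPM (0.788 and 0.79). H2-Q7, the exception, had 4.24 and 3.04 CPM in suprabasal HB, 7.54 and 6.16 in basal HB, 4.90 and 5.42 in ORS, and 7.94, 5.18 and 5.49 in HFSC. H2-Q2 had 4.24 and 3.69 CPM in suprabasal HB, 4.03 and 4.01 in basal HB, 2.86 and 3.62 in ORS, and 6.09, 4.96 and 5.56 in HFSC, lower in ORS by 0.77 on the log2 scale (adjusted p = 0.0114; 0.0565 without HFSC replicate 1, 0.0708 without ORS replicate 1, 0.15 and 0.137 on TPM). Suprabasal HB was lower than basal HB for H2-Q6 (-1.09, adjusted p = 0.0307) and H2-Q7 (-0.91, adjusted p = 0.0326), but H2-Q6 was not called without any 1 of the 4 bulb libraries (adjusted p = 0.0857 to 0.142) and H2-Q7 not without either basal HB library or suprabasal HB replicate 2 (0.0715 to 0.189). H2-Q4, H2-Q6 and H2-Q7 share 60.3%, 60% and 46.6% of their words with other genes; summed, they gave 44.6 and 34.7 CPM in suprabasal HB, 44.1 and 43.2 in basal HB, 46.1 and 50.4 in ORS, and 65.9 to 78.5 in HFSC.

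H2-M9 was high in basal HB alone. It belongs to the H2-Mv group, class I genes known in the mouse from sensory neurons of the vomeronasal organ. H2-M9 had 0.113 and 0.0895 CPM in suprabasal HB (6 and 4 counts), 2.66 and 2.84 in basal HB (183 and 191 counts), 0.236 and 0.101 in ORS (16 and 9 counts), and 0.326, 0.177 and 0.836 in HFSC (9, 4 and 23 counts). Both basal HB libraries lay above all others. H2-M9 was higher in basal HB than in ORS by 4.05 (SE 0.62, adjusted p = 0.00148) and lower in suprabasal HB than in basal HB by 4.72 on the log2 scale (SE 0.68, adjusted p = 0.00142), and both calls held without each of the 9 libraries in turn. H2-M11, of the same group, had 0 and 0 counts in suprabasal HB, 14 and 18 in basal HB, 1 and 0 in ORS, and 0 in all 3 HFSC libraries. H2-M11 passed the low-count filter only through basal HB, where it was high, so its calls give no support. The test called it in both steps (adjusted p = 0.0202 and 0.0232), but not without any 1 of the libraries compared (adjusted p = 0.0503 to 0.13) nor in DESeq2 (0.24 and 0.156). Of the rest of the group, H2-M1 and the H2-M10 genes did not pass the filter. H2-M9 shares 7.64% of its 25-base words with H2-M1.

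The remaining class I rows under 5 CPM were H2-Bl, H2-K2, H2-M2, H2-M3, H2-Q1, H2-Q5, H2-Q10 and H2-T24. H2-K2 and H2-Q5 were lower in ORS than in HFSC (-1.42 and -0.83; adjusted p = 0.0162 and 0.0294). The first was lost without HFSC replicate 2 (adjusted p = 0.0542) or ORS replicate 1 (0.096), and the second in 7 of the 9 leave-one-out fits (up to 0.124), with the block, no filter or only ORS and HFSC in the fit (0.0658 to 0.0925) and on TPM (0.412 and 0.467). H2-T24 was higher in basal HB than in ORS (1.36, adjusted p = 0.0349), which 5 of the 9 leave-one-out fits lost (up to 0.198), as did TPM (0.0512 and 0.101). The other 5 passed in no comparison. H2-M3, which shows bacterial formyl peptides to T cells, had at most 1.31 CPM in any library.

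Class II RNA was present in every population and peaked in basal HB within the lower follicle. Cd74 had 17.6 and 22.8 CPM in suprabasal HB, 46.5 and 51.7 in basal HB, 21.7 and 16.1 in ORS, and 38.8, 22.1 and 29.6 in HFSC. H2-Aa, the alpha chain of H2-A, had 5.98 and 10.1 CPM in suprabasal HB, 18.7 and 22.4 in basal HB, 9.56 and 6.56 in ORS, and 17.8, 13.1 and 17.7 in HFSC. H2-Ab1, its beta chain, had 4.73 and 7.68 CPM in suprabasal HB, 12.9 and 15.1 in basal HB, 6.16 and 8.18 in ORS, and 20.5, 20.2 and 11.6 in HFSC. For all 3 both basal HB libraries lay above every suprabasal HB and ORS library, and suprabasal HB and ORS overlapped.

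Basal HB minus ORS gave 1.38 for Cd74 (SE 0.25, adjusted p = 0.00353), 1.35 for H2-Aa (SE 0.28, adjusted p = 0.00712) and 0.96 for H2-Ab1 (SE 0.32, adjusted p = 0.0481). Suprabasal HB minus basal HB gave -1.29 (SE 0.25, adjusted p = 0.00621), -1.36 (SE 0.29, adjusted p = 0.00877) and -1.18 (SE 0.32, adjusted p = 0.0256). The Cd74 calls held without each library in turn. H2-Aa lost the suprabasal call without basal HB replicate 2 (adjusted p = 0.0572), and H2-Ab1 lost the basal HB call without any 1 of the 4 libraries compared (0.0702 to 0.194) and the suprabasal call without either basal HB library or suprabasal HB replicate 1 (0.0765 to 0.132). ORS was lower than HFSC for H2-Ab1 (-1.28, adjusted p = 0.00905), H2-Aa (-1.01, adjusted p = 0.0155) and Cd74 (-0.68, adjusted p = 0.045). The Cd74 call at that step was lost in 6 of the 9 leave-one-out fits, with the replicate number as a block, under both other scalings, with only ORS and HFSC in the fit and on TPM (adjusted p = 0.0508 to 0.462). H2-Aa lost it without HFSC replicate 1 or 3 or ORS replicate 2 (0.0585 to 0.0971) and with the block (0.0661), and H2-Ab1 without ORS replicate 1 (0.0576). Bulb minus upper follicle passed for none of the class II chains, with 0.17 for H2-Aa and -0.26 for H2-Ab1, nor for Cd74 with 0.40 (adjusted p = 0.0879); against ORS alone Cd74 was higher in the bulb (0.73, adjusted p = 0.0336).

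H2-Eb1, the beta chain of H2-E, had 0.226 and 0.425 CPM in suprabasal HB, 1.98 and 2.53 in basal HB, 0.34 and 1.93 in ORS, and 3.37, 4.65 and 0.545 in HFSC. The ORS libraries differed widely, as did those of HFSC, and no comparison passed. H2-Ea-ps, the row of the alpha chain that is a pseudogene in the genome strain, stayed at or under 0.471 CPM. H2-DMa, which with H2-DMb1 or H2-DMb2 forms the peptide exchanger, had 2.53 and 2.22 CPM in suprabasal HB, 3.13 and 3.39 in basal HB, 2.66 and 2.81 in ORS, and 5.80, 6.11 and 4.58 in HFSC. H2-DMb1 had 1.06 and 1.03 CPM in suprabasal HB, 1.73 and 2.01 in basal HB, 2.83 and 3.33 in ORS, and 7.22, 3.85 and 9.23 in HFSC. Both basal HB libraries of H2-DMa lay above those of suprabasal HB and ORS without a call, while H2-DMb1 in basal HB lay between suprabasal HB and ORS. The bulb was lower for H2-DMb1 (-1.71, adjusted p = 0.000646) and H2-DMb2 (-1.12, adjusted p = 0.00341), also against ORS alone (-1.14 and -0.86; adjusted p = 0.0193 and 0.0406; H2-DMb2 0.0581 with HFSC left out of the fit). The H2-DMa call in the bulb (-0.48, adjusted p = 0.0251) was lost in 6 of the 9 leave-one-out fits (up to 0.13), with no low-count filter (0.0829) and on TPM (0.354 and 0.345), and gave 0.03 against ORS alone. ORS was lower than HFSC for H2-DMa (-1.01, adjusted p = 0.00393; on TPM 0.0645 and 0.0681) and for H2-DMb1 (-1.14, adjusted p = 0.0239; lost in 4 leave-one-out fits, up to 0.107, with the block, 0.093, with only ORS and HFSC in the fit, 0.0582, and on TPM, 0.157 and 0.165). The paired genes H2-DMb1 and H2-DMb2 share 35.1% and 41% of their words with other genes, mostly with each other.

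The master regulators were low. Ciita had 0.358 and 0.403 CPM in suprabasal HB, 1.15 and 1.04 in basal HB, 0.738 and 0.559 in ORS, and 0.761, 0.31 and 0.436 in HFSC, that is, 19 and 18 counts in suprabasal HB against 79 and 70 in basal HB. It was lower in suprabasal HB than in basal HB by 1.52 on the log2 scale (SE 0.41, adjusted p = 0.0249), with no other step called, and that call was lost without any 1 of the 4 bulb libraries (adjusted p = 0.0877 to 0.129). Nlrc5 had 0.905 and 0.716 CPM in suprabasal HB, 1.95 and 2.02 in basal HB, 1.18 and 1.76 in ORS, and 4.46, 2.48 and 2.80 in HFSC. It was lower in suprabasal HB than in basal HB (-1.29, adjusted p = 0.026), the step at which B2m was higher, and lower in ORS than in HFSC (-1.14, adjusted p = 0.0197). The first call was lost without any 1 of the 4 bulb libraries (adjusted p = 0.0619 to 0.127), with the block (0.0528) and on TPM (0.103 and 0.0592), and the second without HFSC replicate 1 (0.0764) or ORS replicate 1 (0.115) and with only ORS and HFSC in the fit (0.0536). The bulb call of Nlrc5 (-0.79, adjusted p = 0.024) became -0.22 against ORS alone (adjusted p = 0.634) and was lost in 5 leave-one-out fits (up to 0.108). Of 7 RFX and NF-Y factor genes, whose products bind the same promoter module as CIITA and NLRC5 assemble on, 2 were lower in the bulb (Nfyb by -0.75, Nfyc by -0.15, adjusted p = 1.41e-05 and 0.0401) and none was higher. Against ORS alone Nfyb and Nfya were lower (-0.81 and -0.26, adjusted p = 7.6e-05 and 0.0393). Over all genes 23.1% were lower in the bulb, and 16.1% against ORS alone.

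**Figure D2:**
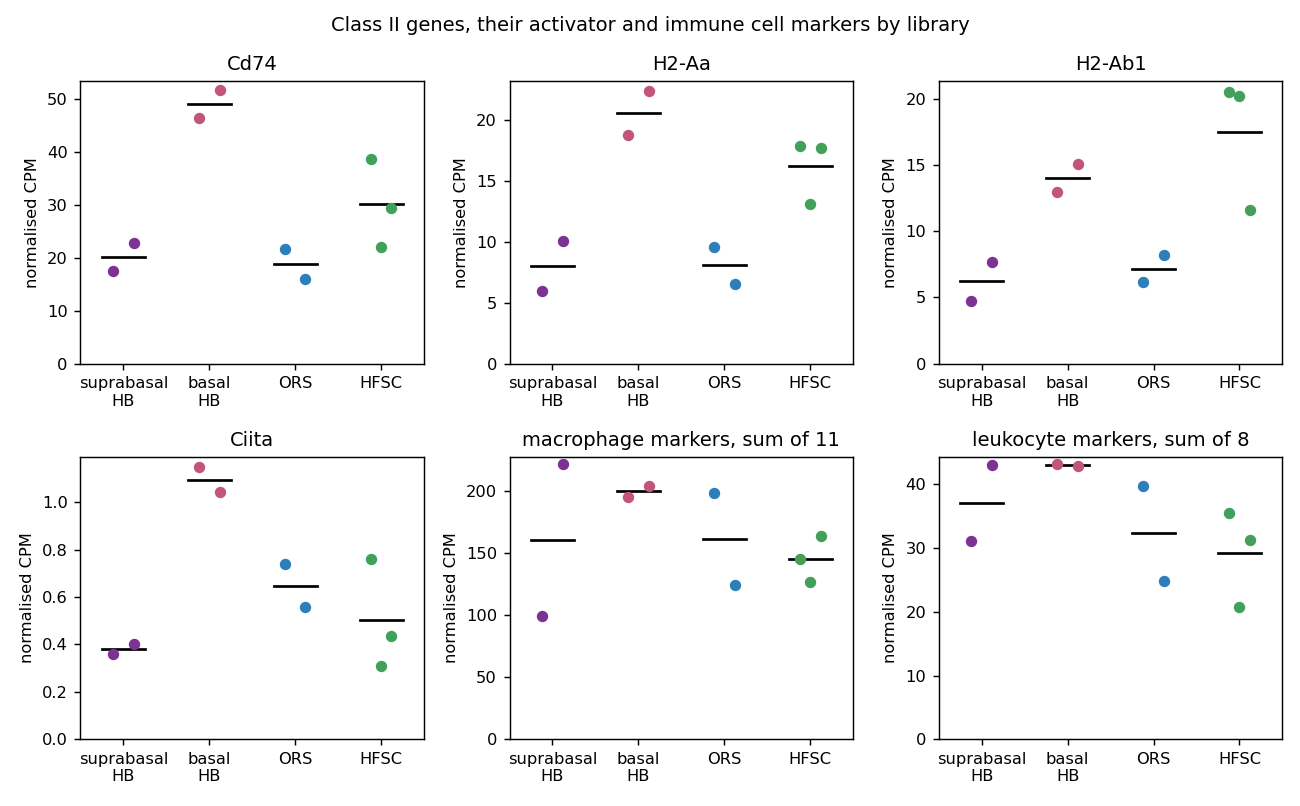
Normalised CPM (y axis, from 0) of Cd74, H2-Aa, H2-Ab1 and Ciita and the summed CPM of 11 macrophage and 8 leukocyte markers in each library, with populations on the x axis, points for libraries and bars for population means. The class II genes and Ciita are higher in both basal HB libraries than in suprabasal HB and ORS. The macrophage sums of suprabasal HB replicate 2 (221) and ORS replicate 1 (198) lie near those of basal HB (195 and 204). In each of these libraries Cd74 and H2-Aa are also higher than in the other library of its population.

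RNA of immune cells was found in all libraries. The 11 macrophage markers, all tested, summed to 99.4 and 221 CPM in suprabasal HB, 195 and 204 in basal HB, 198 and 124 in ORS, and 145, 126 and 163 in HFSC, led by Lyz2, Mrc1 and Csf1r. The 8 pan-leukocyte markers summed to 31.2 and 43.0 CPM in suprabasal HB, 43.2 and 42.9 in basal HB, 39.8 and 24.9 in ORS, and 35.5, 20.8 and 31.2 in HFSC. No macrophage marker was called in basal HB against ORS or in ORS against HFSC, and only Mpeg1 in suprabasal against basal HB (-1.12, adjusted p = 0.0427); the median macrophage difference was 0.33, 0.14 and -0.35 in these steps. No pan-leukocyte marker was called in these 3 steps, and Lcp1 alone was higher in the bulb (0.68, adjusted p = 0.0108; 0.0893 against ORS alone). Suprabasal HB replicate 2 and ORS replicate 1 had macrophage sums within the range of the basal HB libraries or above it (221 and 198 against 195 and 204), with Cd74 at 22.8 and 21.7 against 46.5 and 51.7 CPM. These 2 libraries also had more Cd74 than the other library of their population (17.6 and 16.1 CPM). H2-Aa did the same (10.1 against 5.98 in suprabasal HB, 9.56 against 6.56 in ORS). H2-Ab1 did so in suprabasal HB (7.68 against 4.73) but not in ORS (6.16 against 8.18). In HFSC, Cd74 was highest in replicate 1 (38.8) and the macrophage sum in replicate 3 (163). Which cells carried the class II RNA was not tested.

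Other antigen-presenting cells and lymphocytes had markers at or near 0 and others at low levels, apart from Fscn1 and Thy1, which are described below. Cd207 (langerin), which defines Langerhans cells, was at 0 in suprabasal HB replicate 2 and HFSC replicate 2 and at most 0.109 CPM elsewhere, and Clec9a, of cross-presenting dendritic cells, at most 0.0892. The 9 Langerhans and dendritic cell markers summed to 73.6 and 92.5 CPM in suprabasal HB, 291 and 318 in basal HB, 53.6 and 49.5 in ORS, and 90.9 to 111 in HFSC. In basal HB nearly all of it was Fscn1, an actin-bundling gene that is not restricted to those cells, which had 287 and 314 CPM in basal HB and changed in each step. Of the 7 markers tested, Fscn1 was higher in basal HB than in ORS and lower in suprabasal than in basal HB, and the other 6 were not called in either step. Cd3e, of the T cell receptor complex, was at most 0.145 CPM. The 8 genes of the T cell list summed to 18.1 and 9.69 CPM in suprabasal HB, 40.3 and 50.5 in basal HB, 52.6 and 58.3 in ORS, and 147 to 174 in HFSC. Thy1, the only gene of that list above 1 CPM, made up nearly all of the sum. It was lower in the bulb (-1.97, adjusted p = 3.39e-05), also against ORS alone (-1.17, adjusted p = 0.00297). Cd209a, a dendritic cell gene, had 0.66 to 2.36 CPM over the 9 libraries, Cd86, a costimulatory gene, 0.49 to 1.23, and Ms4a1 (CD20), of B cells, 0.532 to 1.81. Neither of the 2 B cell genes tested was called. Of 4 mast cell genes tested, Tpsb2 and Cma1 were higher in the bulb (1.42 and 1.04; adjusted p = 0.00528 and 0.0231; against ORS alone 0.0268 and 0.107, and with HFSC left out of the fit 0.0579 and 0.137). Endothelial markers summed to 36.0 and 39.2 CPM in suprabasal HB, 43.9 and 41.3 in basal HB, 45.5 and 46.3 in ORS and 79.2 to 113 in HFSC, and fibroblast markers to 3854 and 1633, 1970.0 and 1638, 1516 and 865, and 1543 to 2748 CPM. Of the 7 fibroblast and papilla genes, 3 were higher and 1 was lower in basal HB than in ORS, where 15.8% and 14.7% of all genes were. Pdgfrb, a growth factor receptor gene of mesenchymal cells, had 7.09 and 5.86 CPM in suprabasal HB, 87.8 and 95.7 in basal HB, 9.67 and 6.70 in ORS, and 12.3 to 20.1 in HFSC. Pdgfra, its relative, had 12.3 and 6.74, 25.6 and 19.6, 5.55 and 2.95, and 9.92 to 17.2 CPM in the same order. Both were thus higher in basal HB than in ORS (3.49 and 2.41, adjusted p = 8.56e-05 and 0.00239) and lower in suprabasal than in basal HB (-3.82 and -1.24, adjusted p = 4.38e-05 and 0.0442), the steps at which Cd74 and H2-Aa were called in the same directions. The list as a whole did not share the second direction. In suprabasal against basal HB 2 of the 7 genes were higher and 2 lower, with a median of 0.91, against 0.00 over all genes. The part of these cells in the class I and class II values was not tested.

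The enzymes that prepare class II peptides followed another course. Of 6, 2 were higher and 3 lower in the bulb: Ctsl (cathepsin L) by 0.76 and Ctsd by 0.24, and Ctsb by -0.57, Lgmn by -0.33 and Ifi30 by -0.38 (adjusted p = 0.000132 to 0.0246). Over all genes 21.6% were higher and 23.1% lower in the bulb, and 15.9% and 16.1% against ORS alone. Against ORS alone Ctsl and Ctsd were higher (1.70 and 0.86; adjusted p = 3.24e-05 and 0.000229), while Ctsb, Lgmn and Ifi30 gave 0.01, 0.01 and 0.08 and were not called. Ctss, the cathepsin of professional antigen-presenting cells that removes Cd74 from class II, had 3.79 and 8.39 CPM in suprabasal HB, 8.002 and 7.94 in basal HB, 7.97 and 5.23 in ORS, and 7.29, 6.07 and 6.83 in HFSC and was called in no comparison. Its 2 suprabasal HB values differed as the macrophage sums of those libraries did.

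Counted over all members, the bulb had 1 member higher (Psmb10) and 14 lower than the upper follicle, with 22 not passed, where 44.6% of all genes tested were called, 21.6% higher and 23.1% lower. The median over the 37 members tested was -0.34, against 0.004 over all genes. Against ORS alone 4 were higher (B2m, Cd74, H2-D1 and Psmb10) and 7 lower (Tap1, Tap2, Tapbp, H2-T10, H2-DMb1, H2-DMb2 and H2-Ke6), where 15.9% and 16.1% of all genes were. With HFSC left out of the fit, 4 were higher (B2m, Cd74, H2-D1 and H2-M9) and 5 lower (Tap1, Tap2, Tapbp, H2-DMb1 and H2-Ke6), where 16.5% and 14.7% of all genes were. H2-Ke6 had 19.1 and 19.4 CPM in suprabasal HB, 17.4 and 16.7 in basal HB, 23.2 and 26.5 in ORS, and 27.3, 30.4 and 31.0 in HFSC, and was lower in basal HB than in ORS by 0.54 on the log2 scale (adjusted p = 0.00561). It shares 78.2% of its words with Gm20427, so its count is uncertain.

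By step, suprabasal against basal HB had 1 member higher (B2m) and 10 lower, where 27.9% of all genes were called, 13.1% higher and 14.8% lower. The member median was -0.47 there and that of all genes 0.00. Basal HB against ORS had 7 higher (B2m, H2-Aa, H2-Ab1, Cd74, H2-M9, H2-M11 and H2-T24) and 1 lower (H2-Ke6), where 30.5% of all genes were called, 15.8% higher and 14.7% lower, with medians of 0.26 and -0.04. The counts of both of these steps include H2-M11, which passed the filter through basal HB alone. ORS against HFSC had 0 higher in edgeR (0 also at an unadjusted p under 0.05 and in DESeq2, and 1 in limma on TPM) and 21 lower, where 41.9% of all genes were called, 18.1% higher and 23.8% lower, with medians of -1.01 and -0.05. Neighbouring steps share libraries, so their counts are not independent of each other. On TPM the share of all calls that were higher was 20.5% in suprabasal against basal HB, where the counts gave 46.8%, and 68.5% in ORS against HFSC, where they gave 43.2%, with medians over all genes of -0.16 and 0.13. Calls that held without each library in turn numbered 12 of 15 for bulb against upper follicle, 3 of 11 for suprabasal against basal HB (B2m, Cd74 and H2-M9), 4 of 8 for basal HB against ORS (Cd74, H2-Aa, H2-M9 and H2-Ke6) and 12 of 21 for ORS against HFSC.

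**Figure D3:**
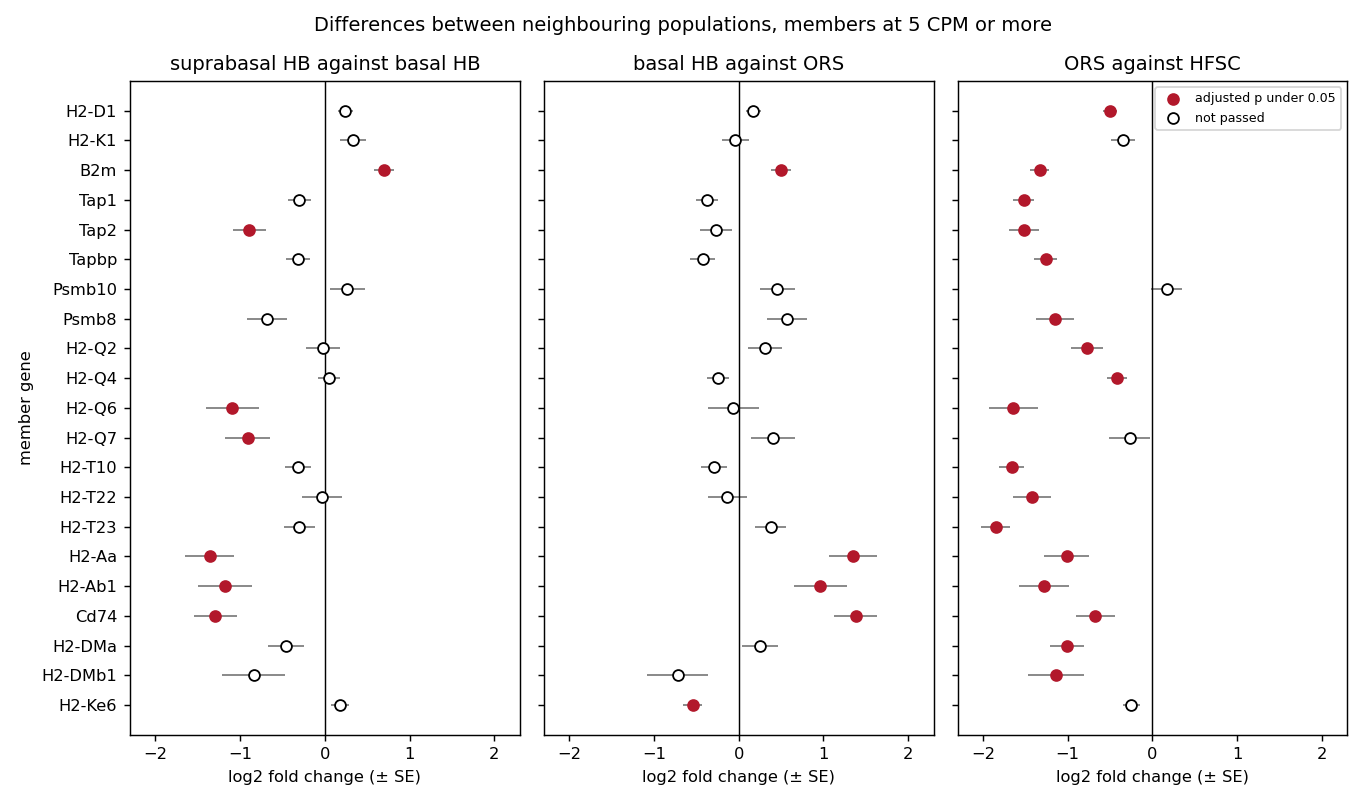
Log2 fold changes with their SE (x axis) of the 21 members at 5 CPM or more (rows) in suprabasal HB against basal HB, basal HB against ORS, and ORS against HFSC, with filled points for an adjusted p under 0.05. Points in the ORS against HFSC panel lie left of 0 except for Psmb10 (0.17), whereas H2-Aa, H2-Ab1 and Cd74 lie right of 0 in basal HB against ORS and left of it in suprabasal against basal HB.

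**Figure D4:**
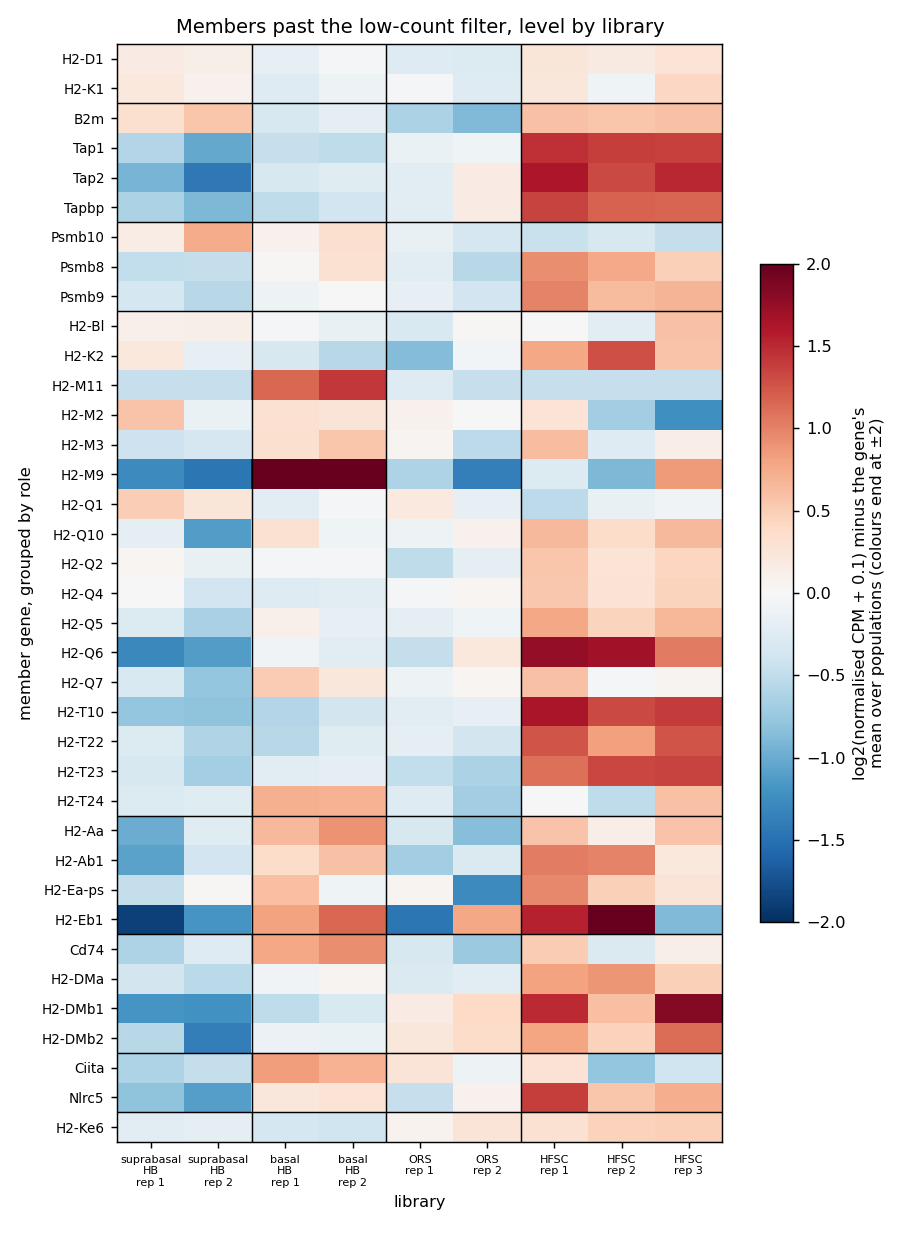
Level of each of the 37 members past the low-count filter (rows, grouped by role) in each of the 9 libraries (columns), as log2(normalised CPM + 0.1) minus the gene's mean over populations, with colours ending at 2 and -2. HFSC columns are red for most class I rows, and H2-M9 is dark red in both basal HB libraries (2.66 and 2.84 CPM).

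Of the interferon pathway, which raises both MHC classes, 2 lists were compared. Of 13 receptor and signalling genes, 2 were higher and 8 lower in the bulb than in the upper follicle, where 21.6% and 23.1% of all genes were, and 12 were lower and none higher in ORS than in HFSC, where 23.8% and 18.1% were. Against ORS alone 3 were higher in the bulb (Ifngr2, Tyk2 and Stat2) and 2 lower (Jak2 and Ifngr1), where 15.9% and 16.1% of all genes were. Jak2, a kinase of the interferon-gamma receptor, was lower in the bulb by 1.27 on the log2 scale (adjusted p = 2.31e-06) and Ifngr1 by 0.75 (adjusted p = 2.76e-05), whereas Ifngr2, the other receptor chain, was higher (0.95, adjusted p = 0.00043). In basal HB against ORS 4 of the 13 were higher (Ifngr2, Tyk2, Stat2 and Irf1) and 1 lower (Jak2), where 15.8% and 14.7% of all genes were. In suprabasal against basal HB 3 were lower (Irf1, Jak1 and Irf2), where 14.8% of all genes were. Irf1, a factor that induces MHC genes, had 5.86 and 4.92 CPM in suprabasal HB, 10.52 and 10.08 in basal HB, 7.63 and 6.16 in ORS, and 13.4, 12.1 and 12.4 in HFSC.

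Interferon-induced genes were called in different directions at different steps. Of 24, 8 were higher and 1 lower in basal HB than in ORS, 7 were lower and none higher in suprabasal than in basal HB, 9 were lower and none higher in ORS than in HFSC, and 9 were higher and 7 lower in the bulb than in the upper follicle. Over all genes 15.8% were higher and 14.7% lower in the first step, 14.8% lower in the second and 23.8% in the third, and 21.6% were higher and 23.1% lower in the bulb. Against ORS alone 8 were higher in the bulb and 2 lower, where 15.9% and 16.1% of all genes were. Gbp2, a guanylate-binding protein gene, had 1.60 and 1.32 CPM in suprabasal HB, 5.51 and 6.22 in basal HB, 1.37 and 0.76 in ORS, and 2.54, 2.04 and 4.94 in HFSC, and was higher in basal HB than in ORS by 2.47 (adjusted p = 0.00325). Gbp7, Iigp1 and Gbp3 were higher in the same step by 2.0, 1.95 and 1.79 (adjusted p = 0.0016, 0.00573 and 0.00116), and Ifit2 was the gene that was lower (-1.20, adjusted p = 0.0023). Irf7, a factor of the type I response, had 3.90 and 5.35 CPM in suprabasal HB, 19.6 and 22.2 in basal HB, 13.1 and 12.5 in ORS, and 35.7, 39.0 and 38.4 in HFSC. Basal HB thus stood above both neighbours for Gbp2 and Irf7. Of the 24 genes, 15 were not called in basal HB against ORS and 17 not in suprabasal against basal HB. In the bulb against ORS alone Irf7 gave -0.38 (adjusted p = 0.0511).

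Of 14 genes linked to immune privilege and inhibition, 11 were tested, and 1 was higher and 3 were lower in the bulb than in the upper follicle, where 21.6% and 23.1% of all genes were. Their median was 0.09, against 0.004 over all genes. Against ORS alone 2 were higher (Cd274 and Il1rn, an interleukin-1 antagonist) and 3 lower (Nt5e, Cd200 and Tgfb2), where 15.9% and 16.1% of all genes were. Cd274, which encodes PD-L1, was the higher one (0.87, adjusted p = 0.00416), with 2.47 and 2.10 CPM in suprabasal HB, 1.03 and 1.34 in basal HB, 0.753 and 0.916 in ORS, and 0.979, 0.93 and 0.982 in HFSC. Nt5e (CD73), Cd200 and Cd47 were lower (-3.15, -1.79 and -0.34; adjusted p = 1.19e-06, 1.68e-05 and 0.00284). Cd200, which restrains macrophages, had 24.96 and 15.8 CPM in suprabasal HB, 22.4 and 25.9 in basal HB, 38.0 and 30.3 in ORS, and 191, 171 and 159 in HFSC. Tgfb2 was higher in ORS than in HFSC (2.21, adjusted p = 0.000374) and lower in suprabasal than in basal HB (-1.60, adjusted p = 0.00505), and Tgfb3 was higher in basal HB than in ORS (1.56, adjusted p = 0.00908) and lower in suprabasal than in basal HB (-2.94, adjusted p = 0.000704). Pomc, the precursor of melanocyte-stimulating hormone, stayed at or under 0.313 CPM.

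Of 6 stress ligands and class I-like molecules tested, 4 were lower and none higher in the bulb than in the upper follicle, where 23.1% of all genes were lower: Mr1 (-1.51, adjusted p = 2.35e-06) and Cd1d1 (-1.68, adjusted p = 1.02e-05), which show vitamin metabolites and lipids to T cells, and Ulbp1 (-1.81, adjusted p = 8.15e-05) and H60c (-2.70, adjusted p = 0.000811), ligands of the NKG2D receptor. H60b and Raet1e were not called. Against ORS alone Mr1, Cd1d1 and Ulbp1 were still lower (-0.96, -1.05 and -1.55; adjusted p = 0.000154, 0.000806 and 0.000971), Raet1e was lower too (-1.93, adjusted p = 0.0212), and H60c was not called (adjusted p = 0.0899). Mr1 had 8.31 and 9.00 CPM in suprabasal HB, 10.4 and 10.8 in basal HB, 16.9 and 20.4 in ORS, and 40.4, 39.3 and 40.1 in HFSC. Its populations lay in the order of Tap1 with no overlap.

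The 6 protein-coding genes whose level followed the mean of H2-K1, H2-D1 and B2m most closely over the 9 libraries, among 15697 compared, were Trappc2l (Pearson's r = 0.978), Hacd1 (0.977), Cog2 (0.974), Diablo (0.973), Pinlyp (0.972) and Cyp4v3 (0.971). No other member was among them. This is a description of 9 libraries from 4 populations, picked from many genes.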

How the data were processed

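The authors deposited, per library, RSEM expected counts (estimated reads per gene, not scaled for depth), TPM (scaled to the same sum after division by length) and effective length, a deposited column that is given in bases as the other unit used. Per the submitters' processing notes, Bowtie2 2.2.9 and RSEM 1.2.30 were run on mm10; parameters and counting strand are not given in the sources used here, so overlapping genes are uncertain. A TPM table of the whole series was not used, since 3 of its columns match no sample label. Here the 92 ERCC rows were left out, expected counts were rounded, filtered with filterByExpr and scaled by TMM, and 1 quasi-likelihood fit of 4 population means (edgeR 4.0.16, R 4.3.3, 5 residual degrees of freedom, 2-sided, Benjamini-Hochberg over 20491 genes) gave 4 comparisons. Bulb against upper follicle sets the mean of suprabasal and basal HB against the mean of ORS and HFSC. A standard error is the fold change on the log2 scale over the root of its F value. Normalised CPM are counts scaled by TMM to a common library size. The procedure was also run on counts simulated from its own fitted means and spreads, with changes added in basal HB. Such counts do not carry the differences between these libraries in Xist or Rps12, so no result is drawn from them. Shared 25-base words were counted among GENCODE M21 transcripts, the source of the positions, in which 98.9% of gene rows were found. Alternatives were other scalings and filters, DESeq2 1.42.0, limma 3.58.1 on log2(TPM + 1) and log2(TPM + 0.1), a replicate block, and left-out libraries. Members at 5 CPM or more in a population are given by library, and other lists by counts and the genes with the lowest p. Members and lists were chosen with earlier results of these data known.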

Additional observations from a re-analysis of the deposited data

How the results depend on the processing

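Reads carry no molecular identifiers, and 2 libraries a population limit every call. The number of members higher in the bulb than in the upper follicle was 1, against 4 with ORS alone as the upper follicle, 2 with upper-quartile scaling, 3 with no low-count filter, 2 with the replicate block, 4 with no HFSC library in the fit (an alternative chosen after seeing the data), 3 in the DESeq2 Wald test, 4 in limma on TPM with either pseudocount, and 1 to 3 without 1 library. The number lower was 14, against 7 with ORS alone, 5 with no HFSC library in the fit, 15 with the block and 11 to 15 without 1 library. In basal HB against ORS, 7 were higher and 1 lower. The higher count was 3 to 8 without 1 library (3 without ORS replicate 2 or basal HB replicate 2, 4 without basal HB replicate 1), and the lower was 2 with only the populations compared, 2 in DESeq2 and 1 to 3 without 1 library. In suprabasal against basal HB, 1 was higher and 10 lower. The first was 2 with only the populations compared and 2 in DESeq2, and the second 2 to 12 without 1 library (4 and 2 without basal HB replicate 1 or 2, 5 without suprabasal HB replicate 2). In ORS against HFSC, 0 were higher and 21 lower by edgeR, and limma on TPM gave 1 and 12 with either pseudocount; the lower count was 14 to 22 without 1 library and 17 with the block. Leaving out 1 library of a compared population that has 2 also lowered the number called over all genes, in each comparison. The cause of these moves was not tested.

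Some single values changed sign. H2-K1 in the bulb against the upper follicle, -0.04, was 0.129 with ORS alone, 0.153 with no HFSC library, 0.0195 with upper-quartile scaling, 0.0213 with the block, 0.00703 with no filter, 0.0417 and 0.0421 on TPM (pseudocounts 1 and 0.1), and -0.0951 to 0.085 without 1 library. H2-K1 in basal HB against ORS, -0.04, was 0.0144 and 0.0145 on TPM, 0.0208 under upper-quartile factors, and -0.142 to 0.0709 without 1 library. H2-D1 in suprabasal against basal HB, 0.24 and not called, was -0.0832 and -0.0836 on TPM. With ORS alone and with no HFSC library, the bulb values of H2-DMa (0.0258 and 0.0496), H2-T23 (0.226 and 0.25) and Psmb9 (0.0219 and 0.0458) turned positive without being called. Same-numbered libraries deviated together with correlations of only -0.11 to 0.12, so the numbers were not taken as pairs.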
